A study of Mus musculus with 3 samples.

Results

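Excitation-contraction coupling is the step by which an electrical signal at the muscle membrane becomes a release of calcium inside the fibre. Described here are 10 genes of this machinery, chosen by symbol and all found among the 22068 genes listed in each library. They are Cacna1s, Cacnb1 and Cacng1 of the voltage sensor, the release channels Ryr1 and Ryr3, Jsrp1 of the junction, Srl and Casq2 of the calcium store, and the calcium pumps Atp2a1 and Atp2a2. They were measured in C2C12, a mouse myoblast line that fuses into myotubes when serum is lowered, after 12 h in differentiation medium. The question was how the level of Linc-RAM, a muscle RNA that also encodes the micropeptide myoregulin, bears on gene expression. Myoregulin inhibits the activity of the pumps that Atp2a1 and Atp2a2 encode, which ties this gene group to the RNA that was manipulated. The paper reports, however, that Linc-RAM promoted differentiation independently of myoregulin.

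The overexpression line was infected with a lentivirus carrying Linc-RAM, the knockdown line with one carrying a short hairpin RNA against Linc-RAM, and the control line with an empty vector. The paper describes different expression cassettes for the overexpression and hairpin vectors. Which of them the empty vector matched is not given in the sources used here, so the control may not match both lines. All 3 lines were C2C12 cells selected with blasticidin and kept as stable lines, and whether each was a pool of cells or 1 clone is not given in the sources used here. Polyadenylated RNA of each line gave 1 library, and with no replicate no p-value for a difference between lines can be given. Overexpression and knockdown share 1 control library and were also compared with each other, so the 3 comparisons are not independent.

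In a skeletal muscle fibre the voltage sensor, an L-type calcium channel of the T-tubule, touches the ryanodine receptor of the sarcoplasmic reticulum and opens it directly. Calcium flows out of the store, where it is held by calsequestrin and related proteins, and the SERCA pumps return it. Most of these proteins are low in myoblasts and accumulate as myotubes form.

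The deposited values are RPKM, reads scaled to transcript length in kilobases and to the read total of the library. The read totals recovered from them were 2105513 for overexpression, 1878146 for knockdown and 5130481 for the control, so sequencing of the overexpression line reached 41.0%, and that of the knockdown line 36.6%, of the control depth. Linc-RAM itself, listed as 2310015B20Rik (chr10:69667432-69682458, forward strand, mm9), stood at 1.07 RPKM with overexpression, or 1 read for a length of 443 nt. It was listed at 0 in the knockdown and control libraries, and its values do not check the labels. A value of 0 may be a failed estimate, since 5 ribosomal protein genes, Rpl21, Rpl26, Rps21, Rps23 and Rps29, were also listed at 0 in every library. Ratios were taken from RPKM with nothing added, and each is given with an exact 95% interval (Clopper-Pearson) made from the recovered reads, which covers counting error only. Counts of genes use those with a mean RPKM of at least 1 over the 3 libraries, called measured here, which were 10172 genes.

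Of the 10 genes, 7 were measured. Ryr1, Casq2 and Cacna1s had means of 0.257, 0.129 and 0 RPKM and fell below this limit. Atp2a1 and Srl passed it narrowly, with means of 1.03 and 1.07 RPKM. The mean includes each line that is compared, so a gene high in 1 line passes more easily, and the genes below the limit are given by their values only. Without its overexpression value Atp2a1 would be below the limit (1.24 RPKM there, 0.929 RPKM with knockdown, 0.907 RPKM in the control). Without its knockdown value Ryr3 would be below it too (2.49 RPKM there, 0.647 RPKM with overexpression, 1.33 RPKM in the control). Both enter the counts and medians below.

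Promoter sequence was in RefSeq (GRCm38.p6) for 5 of the 10 genes. Those of 4 genes are printed to show how E-box content varies in the group, and those of Cacnb1 are not printed. Whether E-boxes go with the levels or ratios of the genes was not tested. Myogenic factors such as MyoD bind E-boxes, here CANNTG on either strand, and the E-boxes are in capitals. Each line holds the 250 bases before the start of the gene, on the strand of the gene. They are Ryr1 (chr7:29125152-29125401, reverse strand), Atp2a1 (chr7:126463074-126463323, reverse strand), Casq2 (chr3:102086165-102086414, forward strand) and Cacna1s (chr1:136052561-136052810, forward strand).
Ryr1: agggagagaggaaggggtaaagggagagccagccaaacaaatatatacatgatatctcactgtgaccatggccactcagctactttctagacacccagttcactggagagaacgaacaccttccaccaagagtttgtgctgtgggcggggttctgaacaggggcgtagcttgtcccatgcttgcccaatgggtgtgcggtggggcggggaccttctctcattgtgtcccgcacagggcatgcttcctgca
Atp2a1: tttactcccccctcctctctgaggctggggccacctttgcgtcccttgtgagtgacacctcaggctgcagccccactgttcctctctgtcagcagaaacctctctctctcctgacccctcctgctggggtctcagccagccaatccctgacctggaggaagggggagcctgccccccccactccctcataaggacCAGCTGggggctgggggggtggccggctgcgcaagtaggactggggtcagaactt
Casq2: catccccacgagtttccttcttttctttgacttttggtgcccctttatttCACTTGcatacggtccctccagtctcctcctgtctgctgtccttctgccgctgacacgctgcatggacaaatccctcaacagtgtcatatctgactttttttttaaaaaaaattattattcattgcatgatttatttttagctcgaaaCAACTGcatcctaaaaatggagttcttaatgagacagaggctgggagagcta
Cacna1s: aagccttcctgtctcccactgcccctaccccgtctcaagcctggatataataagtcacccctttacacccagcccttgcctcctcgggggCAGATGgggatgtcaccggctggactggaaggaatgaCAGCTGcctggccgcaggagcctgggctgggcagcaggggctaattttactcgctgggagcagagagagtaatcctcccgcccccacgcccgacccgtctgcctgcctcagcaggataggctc

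Casq2 held E-boxes at positions -200 and -52, counted from the base before the start as -1. Cacna1s held E-boxes at -160 and -123, of which the second is of the CAGCTG form, and Atp2a1 held 1 at -55 of that form. Ryr1 held none in this window. RefSeq gives Cacnb1 a pair of starts, and only the downstream one had an E-box, at -27. E-boxes were thus found in 4 of the 5 genes, with Cacnb1 counted although its other promoter held none. Counted by promoter and not by gene, 66.2% of 32851 mouse promoters of the same length held an E-box. CAGCTG was held by 13.0%, so these matches are common. The MEF2 motif matched in Casq2 alone of these promoters, against 2.92% of all. A match is a string of letters and not a bound site, and a window without one says nothing of the factor.

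The 10 genes ranged from genes listed at 0 to the top of the libraries. Cacng1 lay above 97.6%, 94.1% and 97.4% of the genes with a value above 0 in the overexpression, knockdown and control libraries. Atp2a2 came next and then Jsrp1 in every library, and the other genes stood at or below 2.49 RPKM. Ryr3 changed its place most, since Cacnb1, Atp2a1 and Srl were above it with overexpression, none of them was above it with knockdown, and Cacnb1 alone was above it in the control.

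**Figure D1:**
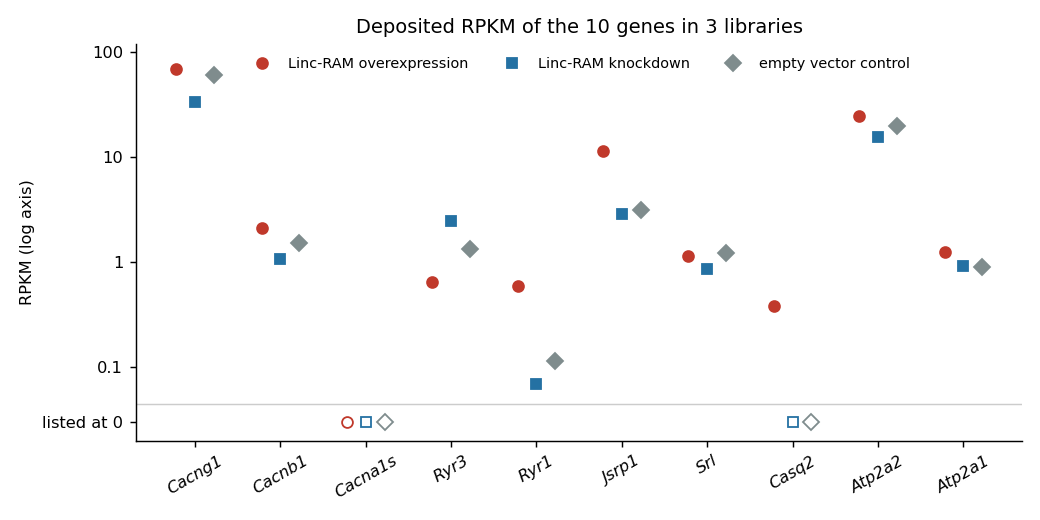
Deposited RPKM (log axis) of the 10 genes, ordered by role, in the Linc-RAM overexpression (circles), knockdown (squares) and control (diamonds) libraries, 1 point per library, with values listed as 0 shown open below the line. Cacng1 and Atp2a2 lie highest in all 3 libraries, Ryr1 and Ryr3 are at similar levels only with overexpression, and Casq2 has a value above 0 only there.

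Among the subunits of the voltage sensor, only Cacng1 was abundant. Cacng1 (chr11:107564532-107577836, reverse strand, mm9) encodes the gamma subunit of the skeletal muscle calcium channel. It stood at 68.7 RPKM with overexpression, 33.6 RPKM with knockdown and 61.2 RPKM in the control, from 174, 76 and 378 reads. The overexpression and control libraries were close, at a ratio of 1.12 (0.932 to 1.35), whereas the knockdown library was the low one, at 0.549 of the control (0.423 to 0.704). Only 5.76% of measured genes had a lower ratio of knockdown over control. That ratio was not past 2-fold, whereas overexpression was 2.04-fold over knockdown (1.55 to 2.71). That call rested on a narrow margin, and Cacng1 was under 2-fold after either rescaling of the libraries.

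Cacnb1 (chr11:97862822-97884348, reverse strand, mm9), the beta subunit that brings the channel to the membrane, was low. It had 2.13 RPKM with overexpression, 1.08 RPKM with knockdown and 1.51 RPKM in the control, from 11, 5 and 19 reads. The order of the libraries was that of Cacng1, but no ratio was apart from 1 within counting error (1.41, 0.607 to 3.12, for overexpression over control, and 0.719, 0.210 to 1.99, for knockdown over control). Cacna1s (chr1:137949327-138016399, forward strand, mm9), which encodes the voltage-sensing pore of the channel, was listed at 0 in all 3 libraries. The accessory subunit gene Cacna2d1 was higher in both lines, at 8.68 RPKM with overexpression and 8.74 RPKM with knockdown, against 6.06 RPKM in the control. Its ratios were 1.43 (1.15 to 1.78) and 1.44 (1.15 to 1.80). Stac3, which links the sensor to the release channel, had 0.265 and 0.595 RPKM in the overexpression and knockdown libraries and was listed at 0 in the control.

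The release channel genes had ratios on opposite sides of 1 with overexpression. Ryr1 (chr7:29788359-29910170, reverse strand, mm9) encodes the main ryanodine receptor of skeletal muscle. It stood at 0.587 RPKM with overexpression, 0.0693 RPKM with knockdown and 0.114 RPKM in the control. These values are 19, 2 and 9 reads over a transcript of 15362 nt, so the overexpression library held more reads of Ryr1 than the control at 41.0% of its total. The ratio of overexpression over control was 5.14 (2.22 to 12.9), and that of overexpression over knockdown was 8.47 (2.04 to 75.03). Knockdown over control was 0.607, with an interval that spans 1 (0.0638 to 2.93). Since Ryr1 was below the limit for measured genes, it enters none of the counts, and with 1 RPKM added to every value its ratio of overexpression over control was 1.42.

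Ryr3 (chr2:112471512-113057253, reverse strand, mm9) encodes the ryanodine receptor that is known from immature muscle and other tissues. It was lowest with overexpression and highest with knockdown, at 0.647 RPKM and 2.49 RPKM, against 1.33 RPKM in the control. At the shortest transcript length that gave whole reads, 5136 nt, these were 7, 24 and 35 reads. Overexpression over control was 0.487 (0.183 to 1.11), which met 2-fold with an interval that reached past 1 and did not with 0.1 RPKM added. Knockdown over control was 1.87 (1.07 to 3.24) and overexpression over knockdown was 0.260 (0.0947 to 0.622). The length behind the reads matters for this gene. An annotated transcript of 15410 nt lies close to 3 times the length found, and at 15408 nt the reads were 21, 72 and 105, with intervals of 0.290 to 0.784 for overexpression over control and 1.37 to 2.55 for knockdown over control. That length was chosen after seeing the data.

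Set side by side within each library, the pair gave the widest contrast of the group. Ryr1 stood at 0.907 of Ryr3 with overexpression (0.365 to 2.55), so the 2 could not be told apart by their reads. It stood at 0.0279 of Ryr3 with knockdown (0.00319 to 0.112) and at 0.0860 in the control (0.0363 to 0.182). The balance between the channels differed 10.6-fold between overexpression and control (exact conditional interval 2.999 to 38.6) and 32.6-fold between overexpression and knockdown (5.30 to 324). Between knockdown and control the ratio was 0.324, with an interval of 0.0319 to 1.79. The sum of both was 1.23 RPKM with overexpression, 2.56 RPKM with knockdown and 1.44 RPKM in the control, so the overexpression line was the lowest by the sum although its Ryr1 was the highest. With 1 RPKM added, Ryr1 over Ryr3 was 0.964 with overexpression, 0.307 with knockdown and 0.479 in the control, a much narrower contrast. The cardiac receptor gene Ryr2 was listed at 0 in all 3 libraries.

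**Figure D2:**
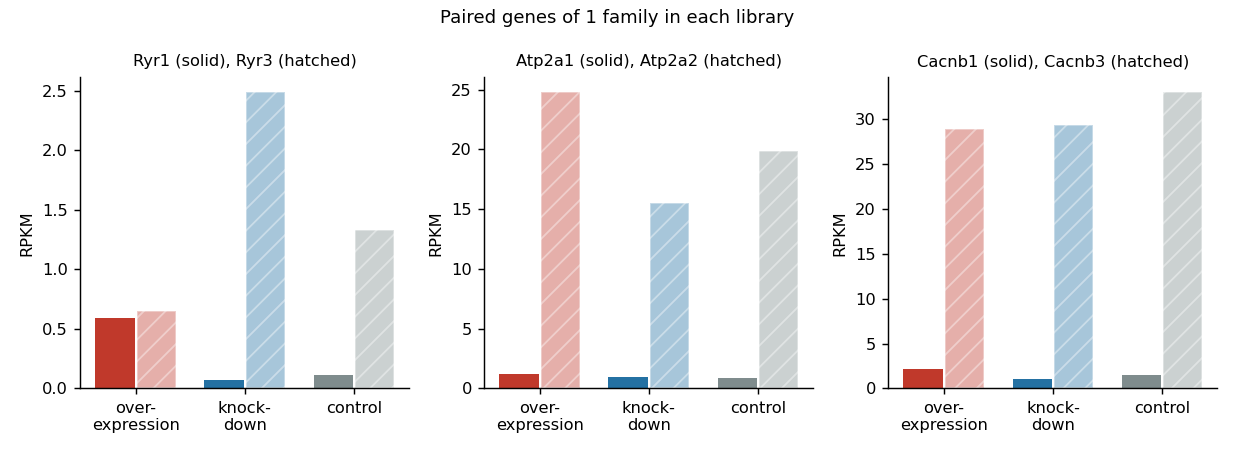
RPKM of paired genes of 1 family in the overexpression, knockdown and control libraries, 1 value per bar, with the first gene solid and the second hatched and axes starting at 0. Ryr1 nearly equals Ryr3 with overexpression (0.587 and 0.647 RPKM), whereas Atp2a2 exceeds Atp2a1 and Cacnb3 exceeds Cacnb1 in every library.

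At the junction of T-tubule and sarcoplasmic reticulum, Jsrp1 had the highest ratio of the measured genes in the group. Jsrp1 (chr10:80271246-80276240, reverse strand, mm9) encodes JP-45, a junctional protein that binds the voltage sensor and calsequestrin. It stood at 11.5 RPKM with overexpression, 2.86 RPKM with knockdown and 3.14 RPKM in the control. Overexpression over control was 3.66 (1.16 to 12.5), and 99.1% of measured genes had a lower ratio. The knockdown and control values were near each other, at a ratio of 0.911 (0.0899 to 5.09). The recovered reads were only 9, 2 and 6, at a length of 372 nt, whereas the longest annotated transcript has 1325 nt. These reads are a lower estimate, and the interval of overexpression over knockdown, 4.01 (0.831 to 38.2), spanned 1.

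Of the proteins that hold calcium in the store, neither of the genes of this group was abundant. Srl (chr16:4480216-4541816, reverse strand, mm9) encodes sarcalumenin, a calcium-binding protein of the sarcoplasmic reticulum. It had 1.14 RPKM with overexpression, 0.856 RPKM with knockdown and 1.21 RPKM in the control, from 12, 8 and 31 reads. Neither line differed from the control beyond counting error (0.943, 0.441 to 1.89, with overexpression, and 0.705, 0.280 to 1.57, with knockdown). Casq2 (chr3:101890338-101950437, forward strand, mm9), the calsequestrin of cardiac and slow muscle, had 0.386 RPKM with overexpression, which is 2 reads. It was listed at 0 in the knockdown and control libraries, so no ratio is given. Casq1, the calsequestrin of fast muscle, was listed at 0 in all 3 libraries.

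Between the pump genes Atp2a2 was the abundant one in every library. Atp2a2 (chr5:122903531-122952183, reverse strand, mm9) encodes SERCA2, the pump of slow and cardiac muscle and of most other cells. It stood at 24.8 RPKM with overexpression, 15.5 RPKM with knockdown and 19.9 RPKM in the control, from 299, 167 and 584 reads. With more reads than any other gene of the group, it was above the control with overexpression (1.25, 1.08 to 1.44) and below it with knockdown (0.781, 0.654 to 0.929) beyond counting error. Both shifts were well under 2-fold, and 77.5% and 22.6% of measured genes had lower ratios, so neither is unusual among all genes. Overexpression was 1.60-fold over knockdown (1.32 to 1.94).

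Atp2a1 (chr7:133589372-133606622, reverse strand, mm9) encodes SERCA1, the pump of fast skeletal muscle. It had 1.24 RPKM with overexpression, 0.929 RPKM with knockdown and 0.907 RPKM in the control, from 9, 6 and 16 reads. Neither ratio to the control was apart from 1 (1.37, 0.534 to 3.29, with overexpression, and 1.02, 0.328 to 2.76, with knockdown). Atp2a1 stood at 0.0501 of Atp2a2 with overexpression, 0.0598 with knockdown and 0.0456 in the control. The balance of the pumps was not detectably different between overexpression and control, at 1.10 times (0.423 to 2.68), nor between knockdown and control, at 1.31 times (0.413 to 3.60). Another pump gene, Atp2a3, had 0.309, 0.231 and 0.0423 RPKM in the overexpression, knockdown and control libraries, from 3, 2 and 1 reads. Of the small proteins that inhibit these pumps, sarcolipin (Sln) was listed at 0 in all libraries, and phospholamban (Pln) had 1 read, in the control.

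**Figure D3:**
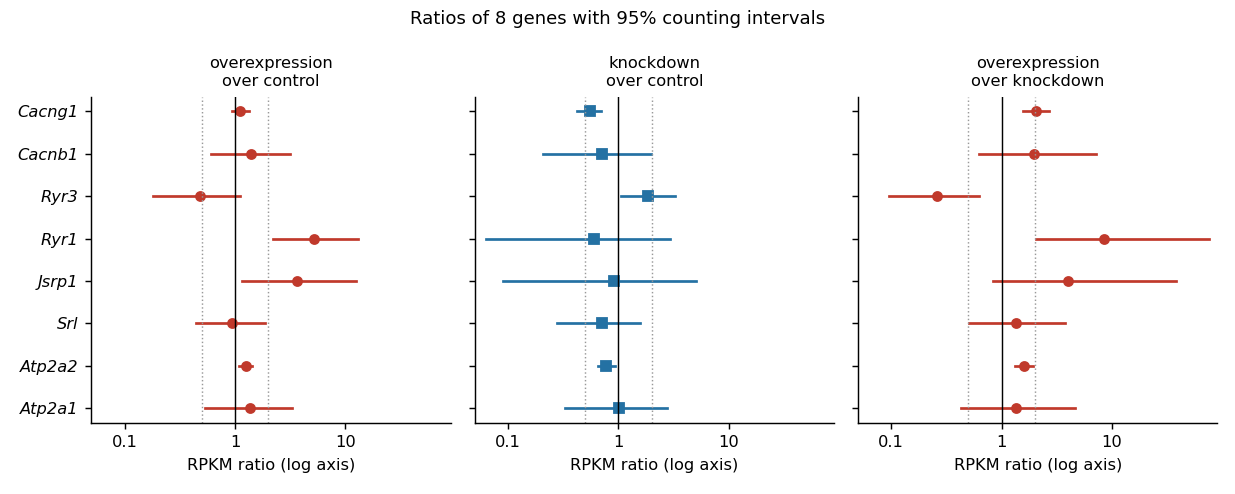
RPKM ratios (log axis) of 8 of the 10 genes, with exact 95% counting intervals as bars, for overexpression over control, knockdown over control and overexpression over knockdown; dotted lines mark 2-fold and the solid line marks 1. The narrow intervals are those of Cacng1 and Atp2a2, and Ryr3 and Ryr1 lie on opposite sides of 1 in all 3 panels.

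Over the group as a whole, 1 of the 7 measured genes was at least 2-fold higher with overexpression than in the control, Jsrp1, and 1 was at least 2-fold lower, Ryr3. Among all measured genes, 3.64% were higher and 3.47% were lower by that criterion. By the counting interval 2 were higher, Jsrp1 and Atp2a2, and 0 were lower, against 9.41% and 8.6% of all genes. With so few genes, counts of 1 and 2 do not set the group apart. The median log2 ratio of the 7 genes was 0.32, with 5 above the control and 2 below, against 0.00 over all measured genes.

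With knockdown, none of the 7 genes reached 2-fold against the control in either direction, where 3.38% of all genes were higher and 4.19% lower. By the interval Ryr3 was higher, and Cacng1 and Atp2a2 were lower, against 9% and 10.4% of all genes. The median log2 ratio was -0.36, with 2 genes above the control and 5 below, against -0.01 over all measured genes. Set directly against each other, overexpression was at least 2-fold over knockdown for Cacng1 and Jsrp1 and at least 2-fold under it for Ryr3, where all genes gave 5.83% and 5.11%. By the interval Cacng1 and Atp2a2 were higher and Ryr3 was lower, against 9.65% and 8.18% of all genes. The median was 0.68, and Ryr3 was the 1 gene of 7 that was lower with overexpression than with knockdown. The median of all measured genes was 0.02.

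**Figure D4:**
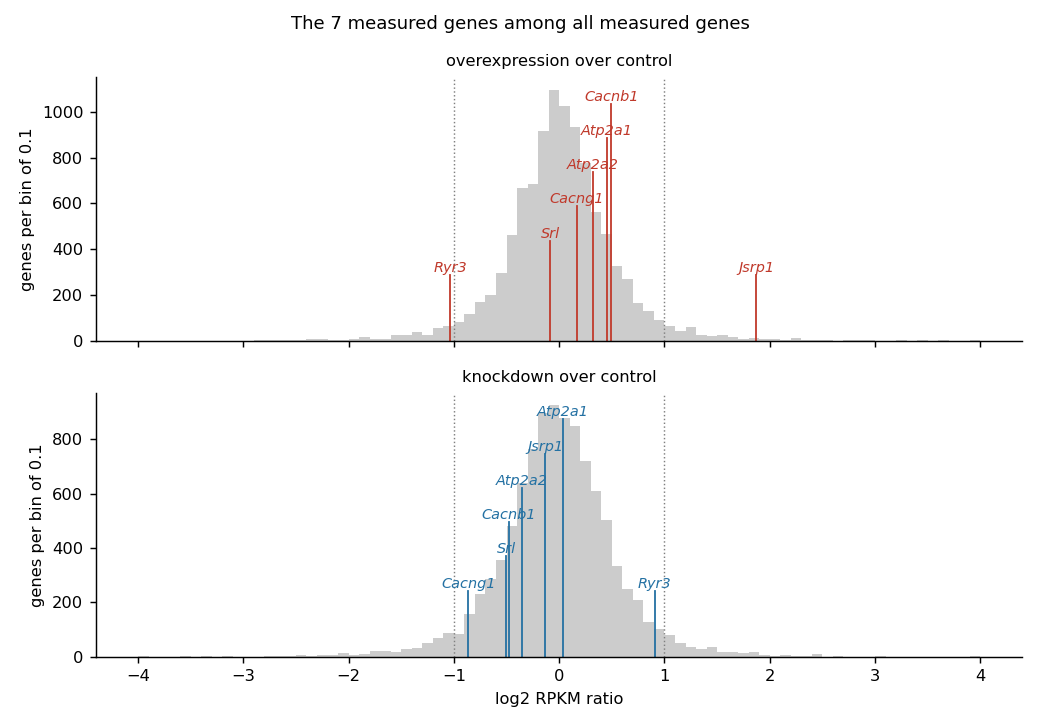
Histograms of the log2 RPKM ratio of all measured genes in bins of 0.1, with the 7 measured genes of the group as labelled lines, for overexpression over control (top) and knockdown over control (bottom); dotted lines mark 2-fold. Jsrp1 and Ryr3 lie outside the dotted lines with overexpression, and no gene of the group does with knockdown.

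The remaining calcium-handling genes, a list of 72 sorted by role, had a median near that of all genes, with members on both sides of it. Of these, 44 were measured and 12 were listed at 0 in all libraries. Their median log2 ratio was -0.02 with overexpression and 0.02 with knockdown, with 22 above the control and 22 below for overexpression and 23 above and 21 below for knockdown. By the 2-fold criterion 1 was higher and 3 were lower with overexpression, and 0 were higher or lower with knockdown. Among all measured genes 2-fold called 3.64% higher and 3.47% lower with overexpression, and 3.38% higher and 4.19% lower with knockdown. By the interval 8 were higher and 10 were lower with overexpression, and 6 were higher and 3 were lower with knockdown. Among all measured genes the interval called 9.41% higher and 8.6% lower with overexpression, and 9% higher and 10.4% lower with knockdown. Without the filter on low values, 2-fold was passed upwards by 7 and downwards by 6 of the listed genes for overexpression, and by 5 each way for knockdown. No share over all genes is given without the filter, so these counts do not set the list apart.

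Of the release channel partners, 1 passed 2-fold. Fkbp1b, which encodes the immunophilin calstabin 2, had the lowest ratio to the control of the measured genes of the list with overexpression. Its level was 0.969 RPKM with overexpression, 4.35 RPKM with knockdown and 5.37 RPKM in the control. That is 2, 8 and 27 reads, and overexpression over control was 0.180 (0.0208 to 0.718). Its paralogue Fkbp1a, the partner of Ryr1, was far more abundant, at 111 RPKM with overexpression, 87.6 RPKM with knockdown and 117 RPKM in the control. Its ratio to the control was 0.954 (0.771 to 1.17) for overexpression and 0.752 (0.589 to 0.952) for knockdown. Calm2, 1 of the genes that encode calmodulin, was the highest of this role, at 149 RPKM with overexpression and 185 RPKM with knockdown, against 136 RPKM in the control.

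Among the genes of the junction, the highest was Bin1, which shapes the T-tubule. It stood at 48.2 RPKM with overexpression, 33.2 RPKM with knockdown and 36.8 RPKM in the control, and its overexpression ratio was 1.31 (1.12 to 1.53). Jph2, a junctophilin that tethers the membranes, was below the control in both lines. It had 18.6 RPKM with overexpression and 22.5 RPKM with knockdown, against 28.3 RPKM in the control, ratios of 0.660 (0.553 to 0.784) and 0.797 (0.671 to 0.942). Triadin (Trdn) had 1 read, with overexpression, and caveolin 3 (Cav3) was listed at 0 throughout.

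Of the other store proteins, the endoplasmic reticulum protein reticulocalbin 3 (Rcn3) was the 1 gene past 2-fold. It stood at 40.9 RPKM with overexpression, 93.1 RPKM with knockdown and 100 RPKM in the control, from 125, 254 and 748 reads, and only the overexpression library was low (0.407, 0.334 to 0.493). Calr, the chaperone calreticulin, was the most abundant of the whole list, at 226 RPKM with overexpression, 275 RPKM with knockdown and 268 RPKM in the control. Its overexpression ratio was 0.845 (0.783 to 0.911).

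Exchangers and pumps of the cell membrane remove calcium from the cell. Slc8a1, the sodium-calcium exchanger, was low with overexpression and high with knockdown, like Ryr3. It had 0.587 RPKM with overexpression and 2.09 RPKM with knockdown, against 1.30 RPKM in the control, from 23, 73 and 124 reads. Its ratios were 0.452 (0.276 to 0.709) and 1.61 (1.19 to 2.16). Without its knockdown value Slc8a1 would be below the limit for measured genes, and it enters the counts and medians of the list. Atp2b1, a calcium pump of the plasma membrane, was high with overexpression only, at 21.6 RPKM there, 9.86 RPKM with knockdown and 10.9 RPKM in the control. Overexpression over control was 1.97 (1.70 to 2.29), just under the criterion, and overexpression over knockdown was 2.19 (1.78 to 2.70). Atp2b4, the most abundant of this role with a mean of 18.8 RPKM, stood at 0.902 of the control with overexpression and 1.06 with knockdown.

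Calcium also enters from outside when stores empty, and mitochondria take it up. Orai2, a pore of store-operated entry, was the highest of its role and was above the control in both lines, at 15.4 RPKM with overexpression and 15.2 RPKM with knockdown, against 10.9 RPKM. The mitochondrial uniporter gene, listed as Ccdc109a (Mcu), stood at 7.01 RPKM with overexpression, 4.12 RPKM with knockdown and 3.15 RPKM in the control. It was 2.22-fold over the control with overexpression (1.17 to 4.20) from 21 reads against 23. Among calcium-dependent signalling genes, Nfatc4 had 2.48 RPKM with overexpression, 5.17 RPKM with knockdown and 4.80 RPKM in the control, and overexpression was at 0.480 of knockdown (0.268 to 0.837). Camk2g, a calmodulin-dependent kinase and the highest of this role, stayed within counting error of the control in both lines.

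Cacnb3, a beta subunit not known as part of the skeletal voltage sensor, was the highest of the other channel subunits. It had 28.9 RPKM with overexpression, 29.4 RPKM with knockdown and 33.0 RPKM in the control, which is 13.6, 27.1 and 21.9 times Cacnb1 in the same library. This pair was chosen after its values were seen. The balance of Cacnb1 over Cacnb3 differed 1.61-fold between overexpression and control, within counting error (0.679 to 3.64).

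**Figure D5:**
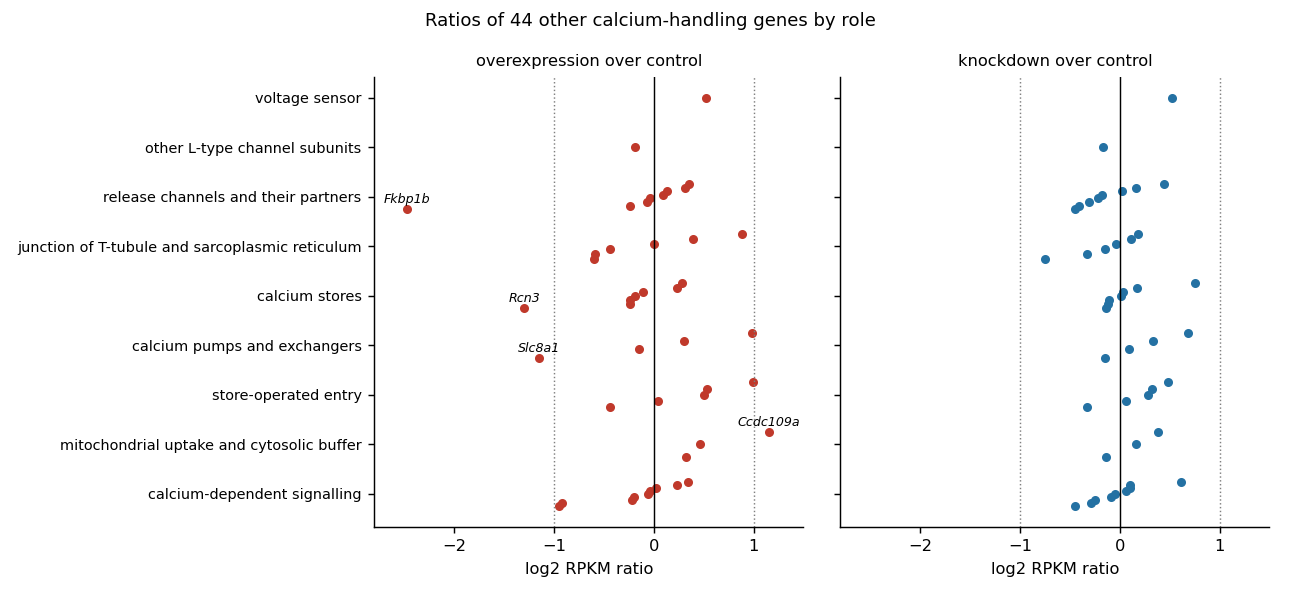
Log2 RPKM ratios of the 44 measured calcium-handling genes outside the group, 1 point per gene, by role from voltage sensor (top) to signalling (bottom), for overexpression over control (left) and knockdown over control (right); dotted lines mark 2-fold. Labelled are Fkbp1b, Rcn3 and Slc8a1 on the low side and Ccdc109a on the high side with overexpression, and no point passes 2-fold with knockdown.

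Markers of the cells themselves also differed between these libraries. All 7 listed genes of myoblasts and early muscle were measured, with a summed level of 559 RPKM with overexpression, 213 RPKM with knockdown and 376 RPKM in the control. Most of each sum was Des, at 386 RPKM with overexpression, 145 RPKM with knockdown and 291 RPKM in the control. Chrna1 alone of the 7 was higher with knockdown than in the control, at 32.9 RPKM against 28.7 RPKM. Myog, which drives terminal differentiation, stood at 22.1 RPKM with overexpression, 3.60 RPKM with knockdown and 3.95 RPKM in the control, and Myod1 stood at 34.1, 9.76 and 16.7 RPKM. Of 13 contractile genes of myotubes only 4 were measured and 6 were listed at 0 in all libraries, among them Ckm, Myh3 and Myl1. The 13 genes summed to 13.1 RPKM with overexpression, 3.48 RPKM with knockdown and 5.24 RPKM in the control. Mylpf and Tnni1 passed the limit for measured genes only through overexpression, at 3.15 and 2.56 RPKM there. Both were listed at 0 with knockdown and had 0.258 and 0.525 RPKM in the control. Of the 4 measured, Tnnc1 was lower with overexpression than in the control, at 2.03 RPKM against 2.77 RPKM. Acta1 was higher with knockdown than in the control, at 1.49 RPKM against 1.09 RPKM. By the listed values the libraries held RNA of early muscle genes and little of the contractile genes. The contractile genes listed at 0 may be failed estimates, as said above. In bulk RNA, fewer cells of a type and less RNA per cell cannot be told apart.

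Lists of other cell types moved as well. Smooth muscle genes, 5 of 6 measured and Myh11 listed at 0, summed to 483 RPKM with overexpression and 687 RPKM with knockdown, against 1337 RPKM in the control. Most of each sum was Acta2, at 373, 544 and 985 RPKM in these libraries. Smtn did not follow the sum, at 16.3 RPKM with overexpression, 17.9 RPKM with knockdown and 17.3 RPKM in the control. Neuronal genes, 5 of 7 measured and Snap25 listed at 0, summed to 175 RPKM with overexpression and 34.4 RPKM with knockdown, against 119 RPKM. With overexpression 4 of the 5 measured were at least 2-fold higher than in the control, Tubb3, Nefl, Nefm and Gap43. Among all measured genes the share was 3.64%. Stmn2 was lower, at 37.4 RPKM against 81.9 RPKM. Without its overexpression value Nefm would be below the limit for measured genes (6.76 RPKM there, 0.495 RPKM with knockdown, 1.15 RPKM in the control). None of 8 cardiac genes was measured, with sums between 0.315 and 0.609 RPKM, and Myh6, Nppa, Myl7 and Ryr2 were listed at 0. Fibroblast and tenocyte genes summed to 44.1 RPKM with overexpression, 49.3 RPKM with knockdown and 38.9 RPKM in the control, most of it Scx. With overexpression Dcn was higher than in the control, at 4.33 RPKM against 1.12 RPKM, and Fmod was lower, at 0.997 RPKM against 4.16 RPKM. Adipocyte genes summed to 2.18, 2.17 and 0.688 RPKM, macrophage genes to 0.594, 2.00 and 1.17 RPKM and endothelial genes to 0.144, 0.248 and 0 RPKM in the same libraries. The part of the muscle and other markers, of the 3 read totals and of the separate selection of each line in the ratios of Ryr1, Ryr3, Jsrp1 and Cacng1 was not tested.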

How the data were processed

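RNA of 3 stable C2C12 lines was sequenced, 1 library per condition, grouped by the sample labels. Reads were aligned to mm9 by the authors with TopHat (version 1.4.1, by the submitters' notes), gene coverage came from DEGSeq, and an RPKM value for every gene was deposited per library. Which gene annotation was used, and how reads matching several places were handled (this can split reads between paralogues), was not given in the sources used here.

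Ratios were taken from these RPKM values with nothing added, and counts of genes were limited to a mean RPKM of 1 or more. The criterion of 2-fold is that of the study's text and methods, whereas a figure legend of the study gives 1.5-fold with a p-value limit. A 95% exact interval without 1 was the second criterion used here. Genes listed at 0 in the library on top counted as lower, and those at 0 below the line had no ratio. The read total of each library was taken as the smallest at which genes of few reads came out whole at GENCODE vM1 lengths, which held for 24.3%, 21.7% and 27.3% of 1500 genes in the overexpression, knockdown and control libraries, against medians of 0.467%, 0.6% and 0.2% over the totals tried. Reads of a gene came from the longest annotated length that gave whole reads (2398 genes), within 1e-05 per read. Where none did, they came from the smallest whole length from 200 nt (7774 genes), and these reads are a lower estimate. The median measured gene had 37, 32 and 88 reads in the overexpression, knockdown and control libraries. Intervals cover counting error only, not that between cultures. The search was tested on simulated data.

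The 10 genes and all lists were chosen with earlier results of these data known. Named are the 10 genes, their isoform partners, each other measured calcium-handling gene at least 2-fold apart in a comparison, the most abundant gene of each role, and marker genes. The result for 1 gene of these is not reported here. Further genes of the list (Cacna2d1, Stac3, Jph2, Fkbp1a, Sln, Pln, Trdn, Cav3) were named after their values were seen. The alternatives were other filters, added constants, other scalings and 1.5-fold. Positions are on mm9. Motifs were sought in the 250 bases before each RefSeq start (GRCm38.p6), without the bases after it. The work used scipy 1.17.1, pandas 2.3.3 and numpy 2.4.6 in Python 3.11.15, with plots from matplotlib 3.10.9.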

Additional observations from a re-analysis of the deposited data

How the results depend on the processing

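No ratio of the 10 genes to the control or to the knockdown, and no median over them, changed sign under the filters, added constants and scalings that were run. Counts past 2-fold are given as the 10 genes first and the 72 other calcium-handling genes after them. At a mean RPKM of at least 5, the 10 genes had 0 lower with overexpression than in the control and 0 lower than with knockdown, and their median log2 ratio of overexpression over knockdown was 1.03; the other genes had 0 higher and 1 lower with overexpression than in the control and 1 lower than with knockdown. This filter leaves only Cacng1, Atp2a2 and Jsrp1. With no filter, 2 of the 10 genes were higher with overexpression than in the control, Ryr1 being the added one, and the other genes had 7 higher and 6 lower with overexpression than in the control, 5 higher and 5 lower with knockdown than in the control, and 8 lower with overexpression than with knockdown. Under the main filter the other genes had 1 higher and 3 lower with overexpression than in the control. No share over all genes is given under these alternatives, so their counts do not set either list apart. With 0.1 or 1 RPKM added, 0 of the 10 genes were lower with overexpression than in the control, and with 1 RPKM added 0 of the other genes were higher there and 2 were lower with overexpression than with knockdown. Either scaling, by the median of ratios or by the upper quartile, left 1 of the 10 genes higher with overexpression than with knockdown. At 1.5-fold the other genes had 4 higher and 7 lower with overexpression than in the control, 3 higher and 1 lower with knockdown than in the control, and 6 higher with overexpression than with knockdown, and the 10 genes had 1 higher and 1 lower with knockdown than in the control and 4 higher with overexpression than with knockdown. In all, 26 of these counts and medians moved and 76 did not. Among single ratios 5 moved, all with 1 RPKM added and all with Ryr1 or Atp2a1 in them, such as Ryr1 at 1.48 for overexpression over knockdown and Atp2a1 over Atp2a2 at 0.0913 in the control, and 106 did not. Reads at a length near an annotated transcript, an alternative chosen after seeing the data, put the interval of Ryr3 for overexpression over control below 1. No paired analysis was possible because each condition has 1 library. Depth limits Cacnb1, Atp2a1, Srl, Jsrp1, Ryr1 and Casq2, which had between 2 and 31 reads in their best covered library. The narrowest of their intervals against the control, that of Srl with overexpression, ran from 0.441 to 1.89.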
